A study of Sus scrofa with 2 samples.

Results

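Heat shock chaperones encoded by 6 genes, HSP90AA1, HSPA8, HSPH1, DNAJB1, HSPD1 and HSPE1, were followed across the nuclei of pig renal cortex. They were chosen by symbol, and each of the 6 symbols had exactly 1 row among the 31908 features of the deposited annotation (ENSSSCG00000002535, ENSSSCG00000015140, ENSSSCG00000009334, ENSSSCG00000013784, ENSSSCG00000016077 and ENSSSCG00000016078, in that order). Together they gave 22946 of 26691180 UMIs (unique molecular identifiers, tags that each mark 1 RNA molecule) in the nuclei kept from unperfused tissue, and 19876 of 27107290 in those from perfused tissue.

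Heat shock proteins bind unfolded or partly folded proteins and help them to fold, to be refolded after stress or to be passed on for degradation. HSPA8 is the constitutive cytosolic HSP70, which works in cycles of ATP hydrolysis that DNAJB1, a J-domain protein, starts and that HSPH1, a member of the HSP110 family, ends by exchanging the nucleotide. HSP90AA1, the stress-inducible cytosolic HSP90, acts later on client proteins such as kinases and steroid receptors. HSPD1 (HSP60) and HSPE1 (HSP10) form the folding chamber of the mitochondrial matrix. Heat, ischemia, low ATP and oxidized proteins release the factor HSF1, which binds the promoters of many of these genes, and kidney tubules are a known site of such induction after ischemia.

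Kidneys came from a slaughterhouse, were flushed with buffer and heparin, and were kept at 4 °C for about 2 h. The unperfused library was made from cortex collected before perfusion, and the perfused library from cortex collected once a kidney had been on an ex vivo circuit, at 37 °C and 100 mmHg, for 120 min. Each condition had 1 single-nucleus RNA sequencing library. How many animals stood behind a library was not stated, and neither strain nor age of the pigs was given. Time, temperature, flow and pressure changed together between the libraries, so that their parts, as well as differences between kidneys, cannot be told apart. With 1 library per condition there is no replicate check on any difference, no test was run, and the 95% intervals below cover counting error only (exact Poisson intervals for levels, exact conditional intervals for ratios).

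After filtering, 6389 nuclei of the unperfused and 5421 of the perfused library remained, with medians of 3755 and 4383 UMIs. Clustering without the chaperone genes gave 19 clusters, of which 16 were joined into 13 classes named from marker genes and 3 stayed unnamed (642 of 11810 nuclei). Of the 90 markers of these classes found in the files, 73 were highest in their own class. Class names therefore carry the ending "-like". Some of these names are less certain than others. In the parietal epithelial-like cluster 3 of its 4 markers were highest, but none was among its 10 leading genes, which began with DPP10, SLIT3 and CDH18. Of the 5 distal convoluted tubule-like markers, 2 were highest in that class. No immune-like class was formed at a coarser clustering resolution of 0.3 or without integration of the libraries. Among the kept nuclei, 8 cell barcodes occurred in both libraries. The share of mitochondrially encoded RNA was 0.114% before and 0.301% after perfusion, and that of ribosomal protein genes 0.448% and 0.644%.

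All 6 chaperones were unevenly spread over the cortex. Levels are given as CPM, the UMIs of the gene in 1000000 UMIs of the class, and were compared for the same gene between classes, since they are not corrected for gene length. Of the named classes, parietal epithelial-like and principal cell-like nuclei held the most in both libraries, with 5725 and 3749 CPM for the 6 genes summed before and 4842 and 2313 CPM after perfusion. Connecting tubule-like (1991 CPM) and immune-like nuclei (1958 CPM) came next before perfusion, and cycling nuclei (1813 CPM, from 20 nuclei) after it. Of the 236 UMIs behind this last value, 77 were HSPH1 UMIs of 1 nucleus, so this rank rests on that nucleus. Connecting tubule-like nuclei followed at 1588 CPM after perfusion. One unnamed cluster, led by GALNT14, EPHA7 and CNTN4 (59 and 87 nuclei), also ranked high with 2622 and 2535 CPM. Proximal tubule-like nuclei, the largest class, held the least, at 367 CPM (355 to 379) and 278 CPM (266 to 289).

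**Figure D1:**
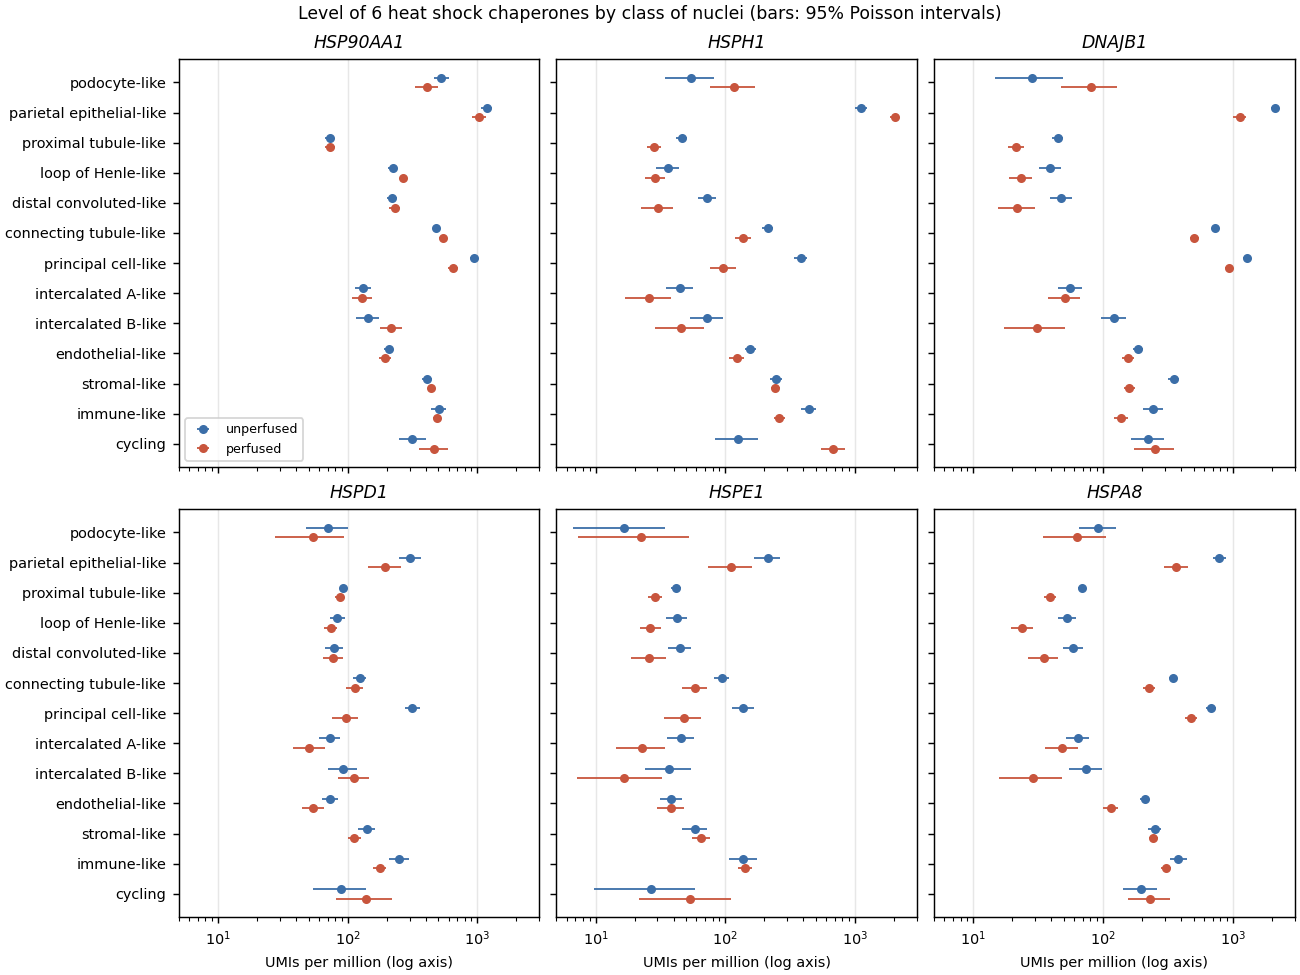
Level of each chaperone in CPM (log axis) in 13 classes of nuclei, unperfused library in blue and perfused in red, with 95% Poisson intervals that cover counting error only. HSP90AA1 ran from 72.7 and 73.2 CPM in proximal tubule-like to 1183 and 1023 CPM in parietal epithelial-like nuclei in the unperfused and perfused libraries, while the highest and lowest class for HSPD1 differed 4.45-fold and 3.85-fold.

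The cytosolic HSP90 gene HSP90AA1 was highest and lowest in the same classes in both libraries. Its level was 1183 CPM (1073 to 1302) in unperfused and 1023 CPM (901 to 1155) in perfused parietal epithelial-like nuclei, against 72.7 CPM (67.5 to 78.1) and 73.2 CPM (67.5 to 79.3) in proximal tubule-like nuclei. The class with the highest level thus exceeded the lowest 16.3-fold before and 14.0-fold after perfusion. Principal cell-like nuclei came next at 945 and 652 CPM. Podocyte-like nuclei followed at 527 CPM before perfusion, and neither these nor immune-like (502 CPM) or connecting tubule-like nuclei (483 CPM) differed from the next in order beyond counting error, except that the last exceeded stromal-like nuclei (408 CPM). In unperfused podocyte-like nuclei, named for the filter cells of the glomerulus, HSP90AA1 thus had rank 3 of 13 classes. DNAJB1 (28.4 CPM, 12 UMIs), HSPD1 (70.9 CPM, 30 UMIs) and HSPE1 (16.5 CPM, 7 UMIs) had rank 13 there, none of them apart from the class above beyond counting error. After perfusion HSP90AA1 had rank 7 in this class, DNAJB1 rank 8 and the mitochondrial pair rank 12.

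HSPA8 was lowest in loop of Henle-like nuclei, at 53.1 CPM (44.8 to 62.5) before and 24.0 CPM (19.6 to 29.0) after perfusion. It was highest in parietal epithelial-like nuclei before perfusion (791 CPM, 701 to 889), where it did not differ beyond counting error from principal cell-like nuclei (684 CPM, 625 to 746). After perfusion principal cell-like nuclei came first with 478 CPM (432 to 528), above parietal epithelial-like nuclei with 366 CPM (295 to 449). Endothelial-like nuclei held 209 and 115 CPM and stromal-like nuclei 251 and 245 CPM. The highest class exceeded the lowest 14.9-fold before and 20.0-fold after perfusion.

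HSPH1 is the nucleotide exchange partner of HSPA8. Parietal epithelial-like nuclei held 1116 CPM (1008 to 1231) before and 2017 CPM (1845 to 2201) after perfusion. The lowest classes were loop of Henle-like nuclei before perfusion (36.3 CPM) and intercalated A-like nuclei after it (25.8 CPM), which makes the highest class 30.8-fold and 78.0-fold above the lowest. Principal cell-like nuclei had rank 3 of 13 before perfusion (382 CPM, 339 to 429) and rank 8 after it (96.6 CPM, 76.5 to 120). Of the 12 pairs of classes next to each other in order, 5 lay apart beyond counting error before and 4 after perfusion. Those after perfusion included parietal epithelial-like over cycling and cycling over immune-like nuclei. The cycling level in these pairs (676 CPM) rests on 1 nucleus that held 77 of 88 UMIs.

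DNAJB1, which delivers substrates to HSP70, ran from 2118 CPM (1969 to 2275) in parietal epithelial-like nuclei to 28.4 CPM (14.7 to 49.6) in podocyte-like nuclei before perfusion, a 74.7-fold range. After perfusion it ran from 1130 CPM (1002 to 1269) in the same class to 21.5 CPM (18.4 to 24.9) in proximal tubule-like nuclei, a 52.7-fold range. Principal cell-like nuclei (1285 and 943 CPM) and connecting tubule-like nuclei (732 and 508 CPM) had ranks 2 and 3 in both libraries, each apart from its neighbours in order. Loop of Henle-like, distal convoluted tubule-like and proximal tubule-like nuclei lay together at 39.2 to 47.7 CPM before and 21.5 to 23.3 CPM after perfusion, without differing beyond counting error.

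Of the mitochondrial pair, HSPD1 had the narrowest range of the 6 genes. It ranged 4.45-fold over the classes before perfusion, from 70.9 CPM (47.8 to 101) in podocyte-like to 315 CPM (276 to 359) in principal cell-like nuclei, and 3.85-fold after it. Only 2 and 1 of its 12 neighbouring pairs lay apart beyond counting error. HSPE1 ranged 12.8-fold and 8.61-fold, with parietal epithelial-like nuclei first before perfusion (212 CPM, 167 to 266) and immune-like nuclei first after it (143 CPM, 125 to 162). The lowest HSPE1 levels behind these folds rest on 7 UMIs in podocyte-like and 8 UMIs in intercalated B-like nuclei. At a finer resolution the perfused immune-like level split into 160 CPM in a cluster led by CST3 and mitochondrial genes and 81.9 CPM in one led by RUNX1 and PRKCB. HSPD1 and HSPE1 are neighbours in the RefSeq pig annotation, as in other mammals, where they share 1 promoter region between them. Over the 26 sums of 13 classes and 2 libraries, their log2 levels had a Pearson r of 0.86, second only to the 0.93 of DNAJB1 and HSPA8 among the 15 pairs of members. The lowest value was 0.62, for HSP90AA1 and HSPE1. These points share libraries and depth, and the values are descriptions.

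The members were also counted within single nuclei. The share of nuclei with several members rises with the level of the class. No share expected for independent genes was computed, so joint presence was not tested. To compare nuclei of unlike depth, each was thinned at random to 1000 UMIs, which left out 198 shallower nuclei of the unperfused and 334 of the perfused library. Of parietal epithelial-like nuclei, 57.4% (81 of 141, exact binomial interval 48.8 to 65.7%) then held UMIs of 3 or more of the 6 genes before perfusion and 44.4% (36 of 81, 33.4 to 55.9%) after it. In principal cell-like nuclei the shares were 40.3% (33.0 to 48.0%) and 16.7% (11.1 to 23.6%). These intervals treat the nuclei of 1 library as independent draws and do not cover differences between kidneys. Connecting tubule-like nuclei had 23.9% (20.3 to 27.9%) and 14.5% (10.1 to 19.8%), and stromal-like nuclei 12.8% (9.59 to 16.5%) and 5.59% (3.88 to 7.77%). Proximal tubule-like nuclei had 0.852% and 0.340%. Before perfusion, thinned nuclei held a mean of 5.60 UMIs of the members in the parietal epithelial-like and 0.40 in the proximal tubule-like class. Without thinning, the share with 3 or more members was 73.9% and 74.7% in principal cell-like and 16.3% and 14.5% in proximal tubule-like nuclei, with perfused nuclei the deeper ones in both classes. None of the classes is known to lack these genes, so the share seen in such a class could not be given. Free RNA, estimated from the tubule genes LRP2, CUBN, SLC12A1 and UMOD, made up 23.4% and 18.6% of UMIs in parietal epithelial-like and 28.7% and 15.7% in stromal-like nuclei. It made up 5.62% and 5.73% in principal cell-like and 8.03% and 7.52% in connecting tubule-like nuclei, and its part in the shares with 3 or more members was not tested.

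**Figure D2:**
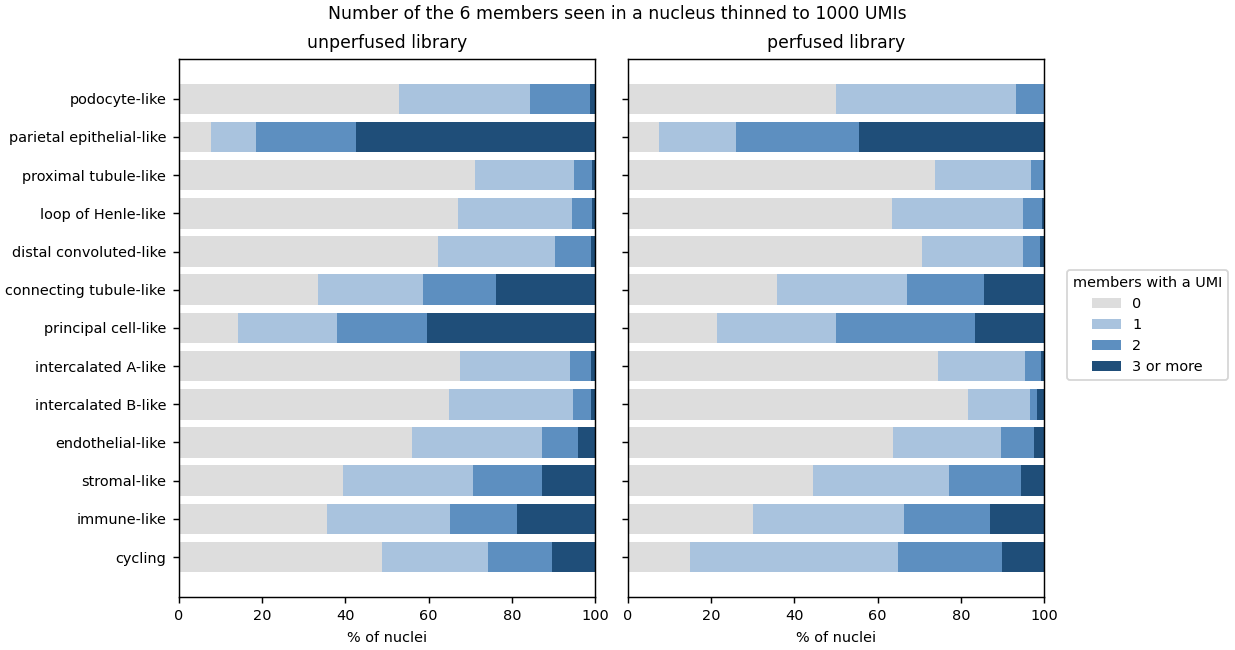
Share of nuclei (percent) with UMIs of 0, 1, 2 or 3 and more of the 6 chaperones after thinning each nucleus to 1000 UMIs, for 13 classes in the unperfused (left) and the perfused library (right). Principal cell-like nuclei with 3 or more members made up 40.3% on the left and 16.7% on the right.

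Over all nuclei, 5 of the 6 chaperones were lower in the perfused library. DNAJB1 had 204 CPM (199 to 210) in the unperfused and 125 CPM (121 to 130) in the perfused library, a log2 ratio of −0.71 (−0.77 to −0.65). HSPA8 had 147 and 110 CPM, a log2 ratio of −0.43 (−0.50 to −0.36). HSPE1 (53.1 and 42.6 CPM, −0.32), HSPD1 (104 and 92.3 CPM, −0.18) and HSPH1 (116 and 103.4 CPM, −0.16) lay closer together. HSP90AA1 went the other way, with 235 CPM (229 to 241) and 260 CPM (254 to 266), a log2 ratio of 0.15 (0.10 to 0.20). None of the 6 differed 2-fold, the size used here to count a gene as higher or lower in place of a test, while 2.1% of the 17182 genes with at least 50 UMIs were at least 2-fold higher and 6.69% at least 2-fold lower in the perfused library. The median log2 ratio of all those genes was −0.056, that of the members −0.25.

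These sums depend on how many nuclei each class gave. The CPM of the 13 classes were therefore also averaged, which lets classes with high levels count most. The log2 ratio of these means was −0.065 for HSP90AA1 and 0.35 for HSPH1, opposite in direction to the sums over nuclei. DNAJB1 (−0.64), HSPA8 (−0.57), HSPE1 (−0.50) and HSPD1 (−0.41) stayed lower. Without the cycling class, in which 1 nucleus held most HSPH1 UMIs, the ratio of means was 0.13 for HSPH1 and −0.11 for HSP90AA1. Parietal epithelial-like nuclei alone held 1116 and 2017 CPM of HSPH1. The median of the 13 class ratios was −0.63 for HSPH1 and 0.01 for HSP90AA1, so by this measure neither turned direction. Class by class, 59 of the 78 combinations of 6 genes and 13 classes had a lower level in the perfused library and 19 a higher one. Among the 71 with at least 50 UMIs, 57 (80.3%) were lower, against 54.6% of the 89155 such combinations of all genes. The counting interval lay below 0 in 41 of the 71 and above 0 in 6, against 15.4% and 11.8% of combinations of all genes, many of which have fewer UMIs and so wider intervals. HSPA8 was lower in 12 of 13 classes, DNAJB1 and HSPD1 in 11 each, HSPH1 in 10, HSPE1 in 9 and HSP90AA1 in 6. The 3 unnamed clusters were not counted. In the one led by GALNT14, HSPA8 was higher (295 and 476 CPM, 0.69, 0.17 to 1.24). HSPH1 (−0.62), HSPD1 (−0.98) and HSPE1 (−1.54) were lower there with intervals below 0. In the one with RIMS2 and AGMO among its leading genes HSPH1 was higher (0.88, 0.11 to 1.69). All other intervals in these clusters held 0.

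**Figure D3:**
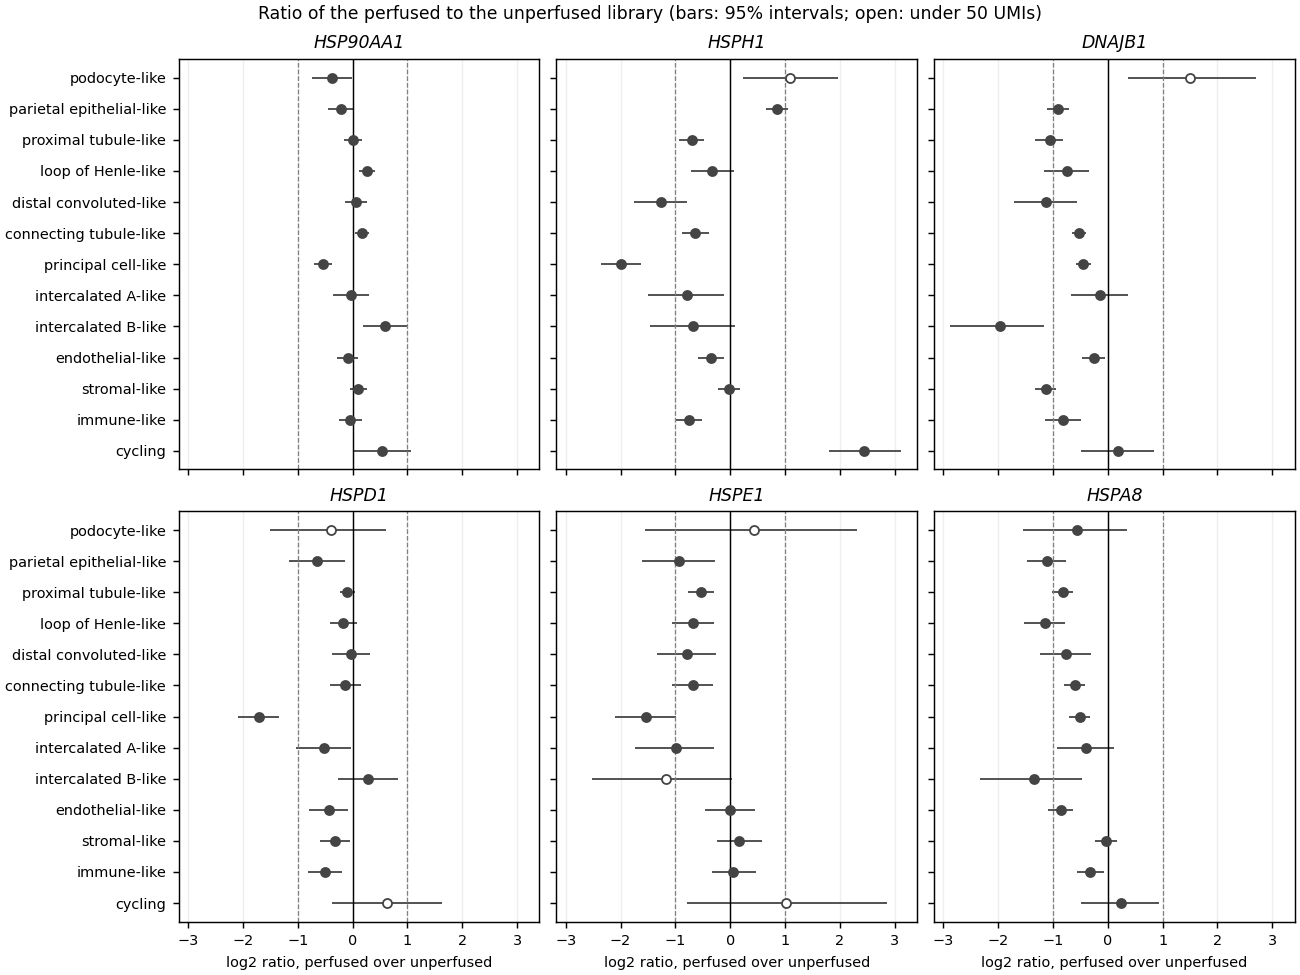
Log2 ratio of the perfused over the unperfused library for each chaperone in 13 classes, with 95% intervals that cover counting error only. Dashed lines mark a 2-fold difference, and open circles stand for genes with under 50 UMIs in the class. HSPH1 runs from −1.98 in principal cell-like to 2.44 in cycling nuclei, where 1 nucleus held most of its UMIs.

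Of the 71 combinations with at least 50 UMIs, 11 were at least 2-fold lower and 1 at least 2-fold higher in the perfused library. Principal cell-like nuclei held 3 of the 11 (HSPH1, HSPD1 and HSPE1), where 4.9% of all 5388 genes were as much lower. Distal convoluted tubule-like nuclei held 2 (HSPH1 at −1.26 and DNAJB1 at −1.12, against 2.46% of genes), as did intercalated B-like nuclei (DNAJB1 at −1.97 and HSPA8 at −1.35, against 2.45%). A single one lay in each of parietal epithelial-like (HSPA8, 2.6% of genes), proximal tubule-like (DNAJB1, 6.47%), loop of Henle-like (HSPA8, 3.33%) and stromal-like nuclei (DNAJB1, 4.61%). The single higher combination was HSPH1 in cycling nuclei, where 7.42% of 1793 genes were as much higher. DNAJB1 therefore made up 4 of the 11, HSPA8 3, HSPH1 2, HSPD1 and HSPE1 1 each, and HSP90AA1 none. The distal convoluted tubule-like class joined 2 clusters. DNAJB1 was at −1.26 (−1.99 to −0.59) in that led by SLC12A3. It was at −0.79 (−1.88 to 0.23) in that led by SCN9A, which had the loop marker CLDN16 among its leading genes. HSPH1 was at −1.31 in the first and −1.13 in the second, with intervals below 0.

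Principal cells, which reabsorb water and sodium in the collecting duct, had the lowest ratio of the 6 genes summed among the 13 classes, at −0.70 (−0.78 to −0.61). HSPH1 stood at 382 CPM before and 96.6 CPM (79 UMIs) after perfusion, a log2 ratio of −1.98 (−2.36 to −1.62). HSPD1 went from 315 to 96.6 CPM (−1.71, −2.09 to −1.33) and HSPE1 from 138 CPM (113 to 168) to 47.7 CPM (33.9 to 65.2), at −1.53. The other 3 were closer to each other, with −0.54 for HSP90AA1, −0.52 for HSPA8 and −0.45 for DNAJB1, and all 6 intervals lay below 0. The 45.5% of nuclei with an HSPH1 UMI before perfusion compare with 20.7% after it, although the perfused nuclei were deeper (medians of 3758 and 5385 UMIs). Without the richest nucleus of each library the HSPH1 ratio was −2.16. In the same nuclei ribosomal protein genes made up 0.507% of UMIs before and 0.265% after perfusion and mitochondrially encoded RNA 0.339% and 0.0952%, and 22 of the 48 ribosomal protein genes with 50 UMIs were at least 2-fold lower. Their part in the chaperone values was not tested.

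Connecting tubules lead into the collecting duct. In connecting tubule-like nuclei HSPE1 (−0.68), HSPH1 (−0.63), HSPA8 (−0.61) and DNAJB1 (−0.53) were lower with intervals below 0. HSPD1 had 124 and 114 CPM, with an interval that held 0, and HSP90AA1 had 483 and 545 CPM, a log2 ratio of 0.17 (0.04 to 0.31) that became −0.27 in thinned nuclei. In loop of Henle-like nuclei HSP90AA1 was higher as well (222 and 266 CPM, 0.26, 0.12 to 0.40). At a finer clustering resolution of 1.0, looked at after the class value was seen, this was 0.43 (0.23 to 0.63) in the loop cluster with CLDN16 and PAPPA2 among its leading genes and 0.07 (−0.14 to 0.28) in the one led by HS3ST5, NRCAM and SIM2. In the whole class HSPA8 was lower at −1.15 (−1.52 to −0.78). The 6 genes summed gave −0.11 in this class, a difference that the scaling factors of edgeR (0.018) and DESeq2 (0.026) and thinning (0.18) turned.

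Proximal tubule-like nuclei, which reabsorb most of the filtrate, had low but well-counted levels. DNAJB1 had 452 UMIs (44.8 CPM, 40.8 to 49.1) before and 177 UMIs (21.5 CPM) after perfusion, at −1.06 (−1.32 to −0.81). HSPA8 (69.2 and 39.0 CPM, −0.83), HSPH1 (46.1 and 28.4 CPM, −0.70) and HSPE1 (41.7 and 28.8 CPM, −0.53) were lower too. HSP90AA1 (72.7 and 73.2 CPM) and HSPD1 (92.5 and 86.7 CPM) had intervals that held 0. The class consisted of 2 clusters. In the one led by SLC7A8, STRA6 and SLC5A12, DNAJB1 went from 28.9 to 19.4 CPM (−0.57, −0.92 to −0.24). In the one led by ADCY8, PGC and SLC22A2 it went from 85.7 to 26.6 CPM (−1.69, −2.11 to −1.28), and HSPH1 (−1.08) and HSPA8 (−1.16) were also lower by more there than in the first cluster (−0.42 and −0.63). After perfusion DNAJB1 in both clusters lay between 19.4 and 26.6 CPM. The difference between the clusters was not tested.

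Parietal epithelial-like nuclei, with the highest chaperone load, had members in both directions. HSPA8 (−1.11, −1.47 to −0.77), HSPE1 (−0.93), DNAJB1 (−0.91, −1.11 to −0.71) and HSPD1 (−0.65) were lower in the perfused library, with intervals below 0. HSPH1 instead was higher at 0.85 (0.66 to 1.05), with 395 UMIs in 145 unperfused and 507 UMIs in 81 perfused nuclei, and 53.1% and 65.4% of nuclei had at least 1 UMI of it. The richest nuclei held 8.1% and 9.27% of these UMIs, and the ratio without them was 0.82. HSP90AA1 had an interval that held 0 (−0.21, −0.44 to 0.02). The HSPH1 ratio was 0.79 after the estimated free RNA was subtracted.

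Vascular and interstitial classes differed by gene. In endothelial-like nuclei HSPA8 went from 209 CPM (192 to 228) to 115 CPM (100 to 131), at −0.86. HSPD1 (−0.43), HSPH1 (−0.34) and DNAJB1 (−0.26) were lower by less, and HSP90AA1 (207 and 195 CPM) and HSPE1 (38.3 and 38.2 CPM) had intervals that held 0. At the finer resolution of 1.0, looked at after the class values were seen, the class split into a large cluster led by TEK and FLT1 (1029 and 614 nuclei) and a small one led by IL33, with PLAT and EHD3 (257 and 177 nuclei). In the large cluster DNAJB1 (163 and 165 CPM) and HSPH1 (146 and 132 CPM) had intervals that held 0, and HSPA8 was at −0.53 (−0.81 to −0.26). In the small cluster DNAJB1 was at −0.99 (−1.41 to −0.58), HSPH1 at −0.93 (−1.43 to −0.44) and HSPA8 at −1.61 (−2.05 to −1.19). In stromal-like nuclei DNAJB1 went from 350 CPM (319 to 383) to 159 CPM (144 to 176), at −1.13, whereas HSPA8 (251 and 245 CPM), HSPH1 (246 and 243 CPM), HSP90AA1 (408 and 440 CPM) and HSPE1 (58.3 and 65.4 CPM) had intervals that held 0. HSPD1 was lower at −0.31 (−0.59 to −0.04). This lower DNAJB1 was present in both stromal clusters, at −1.08 in that led by KCND3, CYP7B1 and C7 and −1.59 in that led by ANO3 and MYH11. HSPH1 was at −0.14 in the first, with an interval that held 0, and at 0.68 (0.11 to 1.29) in the second. In stromal-like nuclei ribosomal protein genes made up 0.816% and 1.63% of UMIs, mitochondrially encoded RNA 0.232% and 0.846%, and free RNA an estimated 28.7% and 15.7%. The DNAJB1 ratio was −1.30 with free RNA subtracted, and the part of the other 2 shares was not tested.

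Immune-like nuclei had DNAJB1 at 245 and 138 CPM (−0.83), HSPH1 at 441 and 261 CPM (−0.76), HSPD1 at 251 and 178 CPM (−0.50) and HSPA8 at 382 and 306 CPM (−0.32), each with an interval below 0, although HSPA8 was at 0.040 in thinned nuclei. At a finer resolution of 1.0, chosen for this class after its values were seen, it split in 2. The cluster led by RUNX1, PRKCB and ARHGAP15 (104 and 176 nuclei) had HSPH1 at 832 and 485 CPM (−0.78) and DNAJB1 at 362 and 155 CPM (−1.22). The cluster led by CST3 and by mitochondrial and collagen genes (159 and 558 nuclei) had HSPH1 at 208 and 179 CPM and DNAJB1 at 185 and 129 CPM. HSPA8 was at −0.92 (−1.39 to −0.45) in the first and at −0.14 (−0.44 to 0.18) in the second. HSPH1 in that second cluster had an interval that held 0 (−0.62 to 0.21), and the DNAJB1 interval ended at −0.06. That second cluster held most nuclei of the class in both libraries. In the whole class ribosomal protein genes made up 2.30% of UMIs before and 3.42% after perfusion, mitochondrially encoded RNA 0.795% and 2.02%, and free RNA an estimated 26.2% and 28.1%. The DNAJB1 ratio was −0.87 and the HSPH1 ratio −0.80 with free RNA subtracted, and the part of the other 2 shares was not tested.

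In the 3 smallest classes 1 nucleus could decide a value. In podocyte-like nuclei (89 and 30) HSP90AA1 had 223 and 91 UMIs, a log2 ratio of −0.37 (−0.74 to −0.01) that became 0.22 in thinned nuclei. HSPH1 had 23 and 26 UMIs there and DNAJB1 12 and 18, of which 1 perfused nucleus held 16 and 1 held 9. Thinned podocyte-like nuclei kept means of 0.73 and 0.63 UMIs of all 6 members together, so the thinned value rests on few UMIs. In cycling nuclei (39 and 20) HSPH1 had 28 UMIs before and 88 after perfusion, at 2.44 (1.81 to 3.11), but 1 nucleus held 77 of the 88 and another 17 of the 28. Without the richest nucleus of each library the ratio was 0.92. HSP90AA1 in these nuclei was at 0.54 (0.02 to 1.06), which became −0.50 when thinned. Thinned cycling nuclei kept means of 1.51 and 1.70 UMIs of all 6 members together, again few UMIs. In intercalated B-like nuclei (112 and 60) 1 nucleus held 11 of the 15 DNAJB1 UMIs after perfusion, and the ratio without the richest nuclei was −3.62. HSP90AA1 was higher in that class, with 142 CPM (115 to 174) and 216 CPM (176 to 261), at 0.60.

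The wider chaperone network was described in the same way, over all nuclei. The 9 HSP70 and HSP110 relatives in the files had 2 genes at least 2-fold lower and none at least 2-fold higher, 7 with an interval below 0, and a median log2 ratio of −0.45. HSP70.2, the gene listed in RefSeq with the synonyms HSPA1A and HSPA1B, is the inducible cytosolic HSP70 and gave 14162 UMIs (531 CPM) before and 6274 UMIs (231 CPM) after perfusion, at −1.20 (−1.24 to −1.15). HSPA6, another inducible HSP70, had 15.6 and 3.8 CPM, at −2.04 (−2.36 to −1.72). HSP70 genes are alike in sequence and reads that fit several genes are not counted, so levels of HSP70.2 and HSPA6 are uncertain. Among the 12 classes with 50 UMIs, HSP70.2 was lower in all 12 with intervals below 0 and at least 2-fold lower in 7, from −0.70 in immune-like to −2.55 in intercalated B-like nuclei. In parietal epithelial-like nuclei it went from 5900 to 1786 CPM.

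The other families had medians closer to 0. The 19 J-domain relatives of DNAJB1 had a median of −0.0051, with none past 2-fold, and DNAJA1 (−0.63) and DNAJB5 (−0.54) had the ratios farthest from 0. Among 17 co-chaperones with 50 UMIs, 1 was at least 2-fold lower, CACYBP, which binds a ubiquitin ligase, at 104 and 47.0 CPM (−1.14, −1.24 to −1.05), and BAG5 had −0.52. The HSP90 relatives were HSP90AB1, the constitutive cytosolic form, at 0.47 (0.37 to 0.59), and TRAP1, the mitochondrial form, with 57.4 and 57.95 CPM. In stromal-like nuclei HSP90AB1 was at 62.1 and 151 CPM (1.29, 0.94 to 1.65), while its close relative HSP90AA1 was at 408 and 440 CPM. In principal cell-like nuclei HSP90AB1 was lower, at 79.9 and 37.9 CPM (−1.08, −1.75 to −0.42). Of 5 small heat shock proteins, 1 was at least 2-fold higher, HSPB6 with 32 and 84 UMIs, and HSPB8 stood at −0.95.

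Over all nuclei, none of the chaperones of other complexes and compartments differed 2-fold. The 8 subunits of the TRiC chaperonin, which folds actin and tubulin, had a median of −0.12, with CCT2 at 0.63 and CCT8 at −0.31. For mitochondrial protein quality, 7 genes that work beside HSPD1 and HSPE1 had a median of 0.063, with CLPX at −0.24 and CLPP at 0.23. The 15 genes of the endoplasmic reticulum had a median of −0.12 and none past 2-fold, with HYOU1 at −0.55 and DNAJB9 at −0.43. In parietal epithelial-like nuclei 2 of the 4 such genes that had 50 UMIs were at least 2-fold higher, against 2.08% of all genes there. Named after its values were seen, HSPA5, the main HSP70 of the endoplasmic reticulum, had 288 and 1293 CPM in that class (2.17, 1.84 to 2.50), and the co-chaperone BAG3 had 50.8 and 183 CPM (1.85, 1.03 to 2.72). HSF1, the master regulator, had 41.7 and 48.1 CPM (0.21, 0.09 to 0.32), and HSF2 37.4 and 31.8 CPM (−0.23, −0.37 to −0.10), within a list of 5 heat shock factors whose median was −0.15. RBM3, which is induced by cold, had 29.4 and 31.8 CPM with an interval that held 0. The 9 immediate early genes with 50 UMIs, a stress response of another kind, had a median of 0.51 with FOSB and EGR1, named here after their values were seen, at least 2-fold higher.

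**Figure D4:**
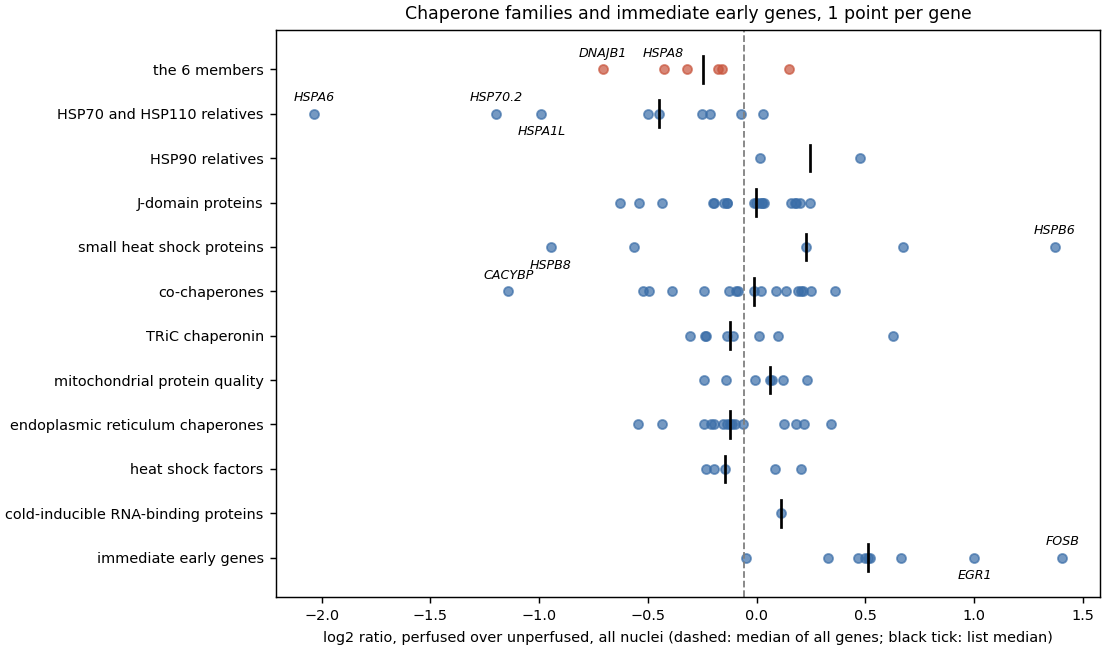
Log2 ratio of the perfused over the unperfused library over all nuclei, 1 point per gene with at least 50 UMIs, for the 6 members (red) and the other lists (blue). Black ticks are list medians and the dashed line is the median of all genes (−0.056). HSP70.2 and HSPA6 lie left of every member, and FOSB and EGR1 to the right.

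The genes with the most similar pattern were looked for among 9152 genes, as Pearson r of log2(CPM + 5) over the same 26 sums. DNAJB1 (0.97) and HSPA8 (0.95) both had HSP70.2 first, followed by UBB, a polyubiquitin gene, and H2AC6, a histone gene, at 0.93 to 0.95. HSPH1 came closest to FOS (0.90), HSPB1 (0.89), a small heat shock protein, and SERPINH1 (0.87), the collagen chaperone. Among the 26 sums, the HSPH1 value of perfused cycling nuclei rests on 1 nucleus with 77 of 88 UMIs, and r without it was not computed. HSPD1 and HSPE1 both had ST13, an HSP70 co-chaperone, first, at 0.86 and 0.85, and HSPD1 also had the co-chaperone STIP1 at 0.77. HSP90AA1 came closest to AHI1 (0.85), H2BC21 (0.85) and GK5 (0.83), none of them a chaperone. The remaining genes were BMP2K for HSPD1 (0.80), and UBB (0.82) and MAMDC4 (0.80) for HSPE1. The points share libraries and depth, as above.

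**Figure D5:**
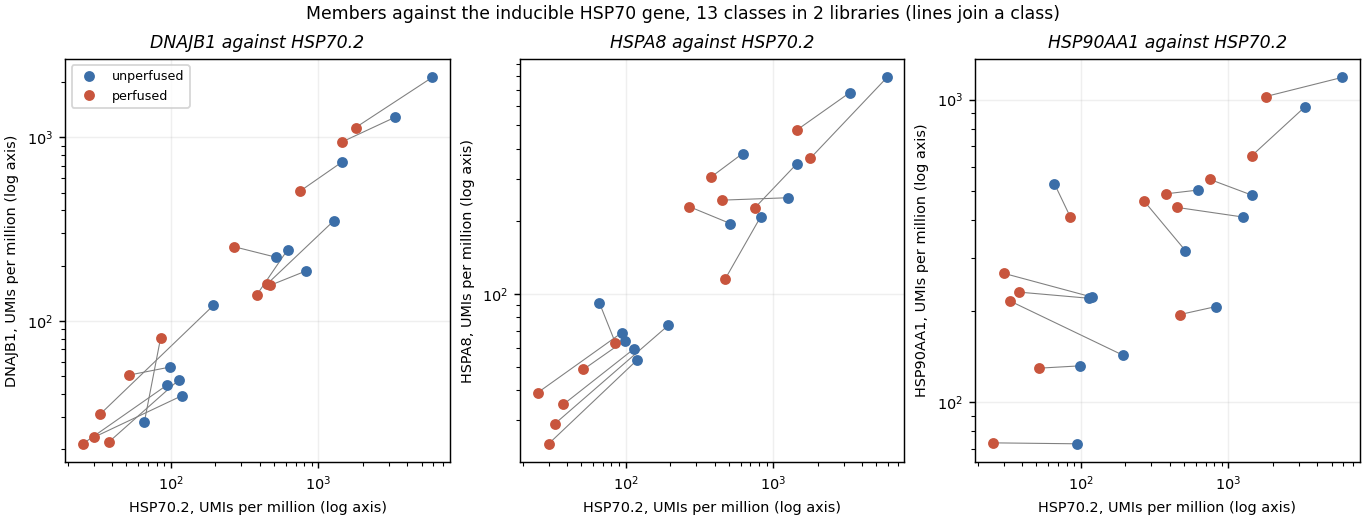
DNAJB1, HSPA8 and HSP90AA1 against HSP70.2, all in CPM on log axes, 1 point for each of 13 classes in the unperfused (blue) and perfused library (red), with a line joining each class. DNAJB1 follows HSP70.2 over the classes (r = 0.97 on the log2 scale), and HSP70.2 is lower in the perfused library in every class drawn except podocyte-like nuclei, where it had 28 and 19 UMIs.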

How the data were processed

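Pig renal cortex nuclei were analysed in 2 libraries, 1 unperfused and 1 perfused. The authors processed the reads with Cell Ranger (5.0.1 per the submitters' processing notes; introns included, with the FASTA and GTF files of an Ensembl pig release) and deposited raw UMI counts per gene and barcode, which were used without rounding. The sources name that release but no assembly version, so no coordinates are given, and no sequences were used here. A table of gene names gave symbols to 811 of the 31908 features, beside 16554 that had one. RefSeq (assembly Sscrofa11.1) was used only for synonyms and neighbours.

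Barcodes were kept if they had 500 to 6000 genes and no more than 7% of UMIs from mitochondria, Scrublet doublets (scanpy 1.11.5; 641 and 489 barcodes) were removed, and the libraries (7179 and 6205 barcodes) were integrated and clustered in Seurat 5.3.0 (2000 variable genes, 30 anchor dimensions, 15 principal components, resolution 0.5) with all genes of the lists left out of the variable genes. SoupX, used in the study, was not run. Each cluster was named after the marker list that led by mean log2 fold, provided that 3 of its markers passed a log2 fold of 1 and were seen in 10% of nuclei, and that no other list had more markers among the 10 leading genes. UMIs were then summed per class and library. The computation of ratios and intervals was checked on simulated counts with known folds.

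The genes named are the 6 members, HSF1, HSF2, RBM3, the 2 genes with the largest ratio from each chaperone list, and the 3 genes most alike to each member; immediate early and ribosomal protein genes serve as comparison. CIRBP, which the same rule names, was not matched by symbol. Members and lists were chosen with earlier results of these data known. The free RNA estimate used LRP2, CUBN, SLC12A1 and UMOD and left out proximal tubule-like, loop of Henle-like, distal convoluted tubule-like and cycling nuclei. Alternatives used edgeR 4.0.16 (TMM) and DESeq2 1.42.0 for scaling factors only.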

Additional observations from a re-analysis of the deposited data

Results flagged for a closer look

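A chaperone was looked at again where, among classes with at least 50 of its UMIs, its counting interval lay on opposite sides of 0; no difference between classes was tested. HSP90AA1 had a log2 ratio of −0.37 in podocyte-like and −0.54 in principal cell-like nuclei, against values above 0 with intervals off 0 in loop of Henle-like, connecting tubule-like, intercalated B-like and cycling nuclei. In thinned nuclei the podocyte-like value was 0.22, and the connecting tubule-like (−0.27) and cycling values (−0.50) also turned. These thinned values rest on fewer UMIs and were given no interval. HSPH1 was at 0.85 in parietal epithelial-like and at 2.44 in cycling nuclei, against lower values in 7 other classes. The cycling value rests on 1 nucleus that held 77 of 88 UMIs and was 0.92 without the richest nucleus of each library, whereas the parietal epithelial-like value was 0.82 without them. In podocyte-like nuclei, where they had under 50 UMIs, HSPH1 (1.10, 0.23 to 1.97) and DNAJB1 (1.51, 0.37 to 2.69) also lay above 0.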

How the results depend on the processing

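No paired analysis was possible because each condition has 1 library. Over all nuclei, TMM factors gave log2 ratios of 0.25 for HSP90AA1, −0.057 for HSPH1, −0.60 for DNAJB1, −0.074 for HSPD1 and −0.32 for HSPA8, and DESeq2 size factors 0.25, −0.063, −0.61, −0.081 and −0.33; TMM shifted every gene by 0.10. The mean CPM of the 13 classes, where high classes count most, gave −0.065, 0.35, −0.64, −0.41 and −0.57 for these genes and −0.50 for HSPE1. Without the cycling class (added after seeing the data) it gave −0.11 for HSP90AA1, 0.13 for HSPH1, −0.50 for HSPD1, −0.64 for HSPA8 and −0.58 for HSPE1. Nuclei thinned to 1000 UMIs gave 0.10 for HSP90AA1, −0.78 for DNAJB1 and −0.34 for HSPA8, and doublets kept gave −0.27 for HSPH1 and −0.77 for DNAJB1. For the 6 members summed, TMM factors gave −0.21 in endothelial-like, −0.067 in stromal-like, −0.31 in proximal tubule-like and 0.018 in loop of Henle-like nuclei, and DESeq2 size factors −0.20, −0.075, −0.30 and 0.026. The stromal-like sum was −0.42 with doublets kept, −0.45 in thinned nuclei and −0.31 with free RNA subtracted, and thinning gave 0.18 in loop of Henle-like nuclei. The causes were not tested, apart from scaling, which by construction shifts all genes of a class alike. Without a minimum of UMIs, 4 combinations of gene and class were at least 2-fold higher, and with at least 200 UMIs 0 were higher and 7 lower. Of 352 values for the 47 combinations whose interval lay off 0, computed with other clusterings, doublets kept, thinning, free RNA subtracted or the richest nuclei left out, 346 kept their sign. Immune-like nuclei had no value at resolution 0.3, and neither immune-like nor cycling nuclei had one without integration. Those classes were not formed there, so their stability under these clusterings is unknown. The free RNA setting had no value for the classes it left out. The 6 that turned were all in thinned nuclei: HSP90AA1 in podocyte-like (0.22), connecting tubule-like (−0.27) and cycling (−0.50), HSPD1 in intercalated A-like (0.42), HSPE1 in loop of Henle-like (0.30) and HSPA8 in immune-like nuclei (0.040). By size, 29 of 70 combinations left their counting interval when thinned, 5 with doublets kept and 4 without the richest nuclei. Thinned values, also the 6 that turned, rest on fewer UMIs and were given no interval. Their own counting error can thus take them out of the interval of the full counts, and its part was not tested. Values by gene and class were added after seeing the data. With 1 library per condition the spread between kidneys is unknown, and intervals are too narrow where few nuclei hold most UMIs.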
